A study of Homo sapiens with 12 samples.

Results

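Tau, 4 other microtubule-associated proteins (MAPs), 4 kinases that phosphorylate tau or its relatives, and 1 kinase activator were followed across 4 treatment groups of SH-SY5Y cells. The genes are MAPT, MAP1A, MAP1B, MAP2, MAP4, GSK3B, CDK5, CDK5R1, MARK1 and MARK2. They were chosen by function, with earlier results of these data known. They are 10 of the 19775 genes that had a probe set annotated to exactly 1 gene symbol. Each gene was read from its brightest such probe set over the 12 arrays, and 9 of the 10 were among the 11767 genes bright enough to be tested. MARK2 was not, with a mean log2 signal of 3.13 against a filter at 3.79, the median of all probe sets.

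SH-SY5Y is a line from a human neuroblastoma that serves in many laboratories as a model of neurons. The 4 groups had 3 arrays each: fibrillar amyloid-β (Aβ) with 24 h of incubation and its 24 h control, and oligomeric Aβ with 6 h of incubation and its 6 h control. All were the same line grown in the same medium, and the labels name no differentiating agent, transgene or mutant tau. Form of peptide and hours changed together and cannot be told apart. Whether the hours refer to how long the peptide had aggregated or how long the cells met it is not given in the labels, nor are the replicates said to be separate cultures, so p-values reflect only how far these arrays differ among themselves. Values are log2 MAS5 signals, so a change of 1 is a doubling. Signals of different probe sets are on scales of their own, so no level is set against that of another gene. For arrays their number limits the precision. Fewer cells of a type and less RNA per cell cannot be told apart in such samples.

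Tau binds along microtubules and is the protein of the neurofibrillary tangles of Alzheimer's disease, in which it is heavily phosphorylated. Its relative MAP2 is the main MAP of dendrites, MAP4 is the broadly expressed member of the same family, and MAP1A and MAP1B form a separate family, MAP1B being typical of growing neurites and MAP1A of mature neurons. GSK3B and CDK5 phosphorylate tau at many sites, CDK5 only when bound to an activator such as p35, the product of CDK5R1. MARK1 and MARK2 phosphorylate the repeats by which tau, MAP2 and MAP4 hold microtubules. Arrays of RNA read none of this phosphorylation.

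Of the 9 tested members, MAP2 and MAP4 were the only ones called by limma in any of the 4 contrasts, both lower in the 24 h than in the 6 h controls. Their promoter windows are therefore shown, from RefSeq on build GRCh38.p14, each running from 250 bases before to 50 after an annotated start, 5′ to 3′ on the gene's strand. Capitals mark GC boxes, searched as GGGCGG or its reverse complement CCGCCC, which 45.0% of all 35116 windows of this length hold. Of 3 MAP2 windows on the plus strand, 2 are shown, chr2:209579082-209579381 with 40.0% G and C and chr2:209661246-209661545 with 45.3%. Both MAP4 windows are on the minus strand, chr3:48088799-48089098 with 75% and chr3:48016367-48016666 with 35.3%.
MAP2 upstream start: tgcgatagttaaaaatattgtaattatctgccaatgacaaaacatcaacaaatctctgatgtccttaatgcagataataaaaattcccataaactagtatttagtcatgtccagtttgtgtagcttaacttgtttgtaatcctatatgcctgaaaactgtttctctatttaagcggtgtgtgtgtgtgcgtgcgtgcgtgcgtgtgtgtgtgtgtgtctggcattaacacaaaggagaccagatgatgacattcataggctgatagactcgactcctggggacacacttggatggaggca
MAP2 downstream start: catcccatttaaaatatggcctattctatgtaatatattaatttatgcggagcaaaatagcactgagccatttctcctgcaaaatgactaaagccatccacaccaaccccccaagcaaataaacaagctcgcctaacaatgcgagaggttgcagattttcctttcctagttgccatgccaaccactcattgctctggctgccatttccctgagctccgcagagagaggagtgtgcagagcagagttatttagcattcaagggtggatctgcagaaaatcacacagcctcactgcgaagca
MAP4 upstream start: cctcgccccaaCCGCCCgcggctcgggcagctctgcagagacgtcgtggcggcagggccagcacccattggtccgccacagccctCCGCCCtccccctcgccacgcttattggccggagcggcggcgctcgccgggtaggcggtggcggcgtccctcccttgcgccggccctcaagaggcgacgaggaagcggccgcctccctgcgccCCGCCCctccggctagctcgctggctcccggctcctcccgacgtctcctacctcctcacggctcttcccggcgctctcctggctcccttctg
MAP4 downstream start: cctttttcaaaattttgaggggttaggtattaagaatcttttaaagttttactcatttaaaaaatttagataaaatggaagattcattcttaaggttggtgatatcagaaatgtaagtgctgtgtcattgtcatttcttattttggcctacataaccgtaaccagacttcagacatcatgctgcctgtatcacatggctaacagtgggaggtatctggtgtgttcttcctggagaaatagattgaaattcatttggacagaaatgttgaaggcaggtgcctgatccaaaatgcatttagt

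The upstream MAP4 window holds 3 GC boxes and 37 CpG dinucleotides, against a median of 14 CpG over all windows. The other MAP4 window holds 1 CpG and the shown MAP2 windows 7 and 5, and none of these 3 has a GC box. The third MAP2 window, which overlaps the first, has none either. Over the members, 8 matched the table with 14 windows, and 9 of the 14 hold a GC box. CDK5R1 has the window richest in G and C, at 80.0% with 57 CpG. A TATA box, searched as TATAAA or TTTATA, stood in 2 of the 14 windows, both of MAP1B, and in 11.5% of all windows. MAPT and MARK1 are named only. These matches describe letters and not binding.

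As for the arrays as a whole, the median log2 level per array ran from 3.89 to 4.12. Of 10 noradrenergic neuroblastoma markers 9 were measured and 8 passed the filter; TH, a defining enzyme of that lineage, was below it on average at log2 0.73. Their summed linear signal was 15809 to 16523 with fibrils, 15707 to 17502 in the 24 h controls, 16734 to 17159 with oligomers and 16547 to 16954 in the 6 h controls. Mesenchymal-type markers passed for 7 of 8, with sums of 13898 to 16247 over all arrays. Epithelial markers passed for 2 of 5, glial ones for 1 of 3 measured and blood or endothelial ones for 1 of 5 measured, with sums that never exceeded 94.1 on an array.

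**Figure D1:**
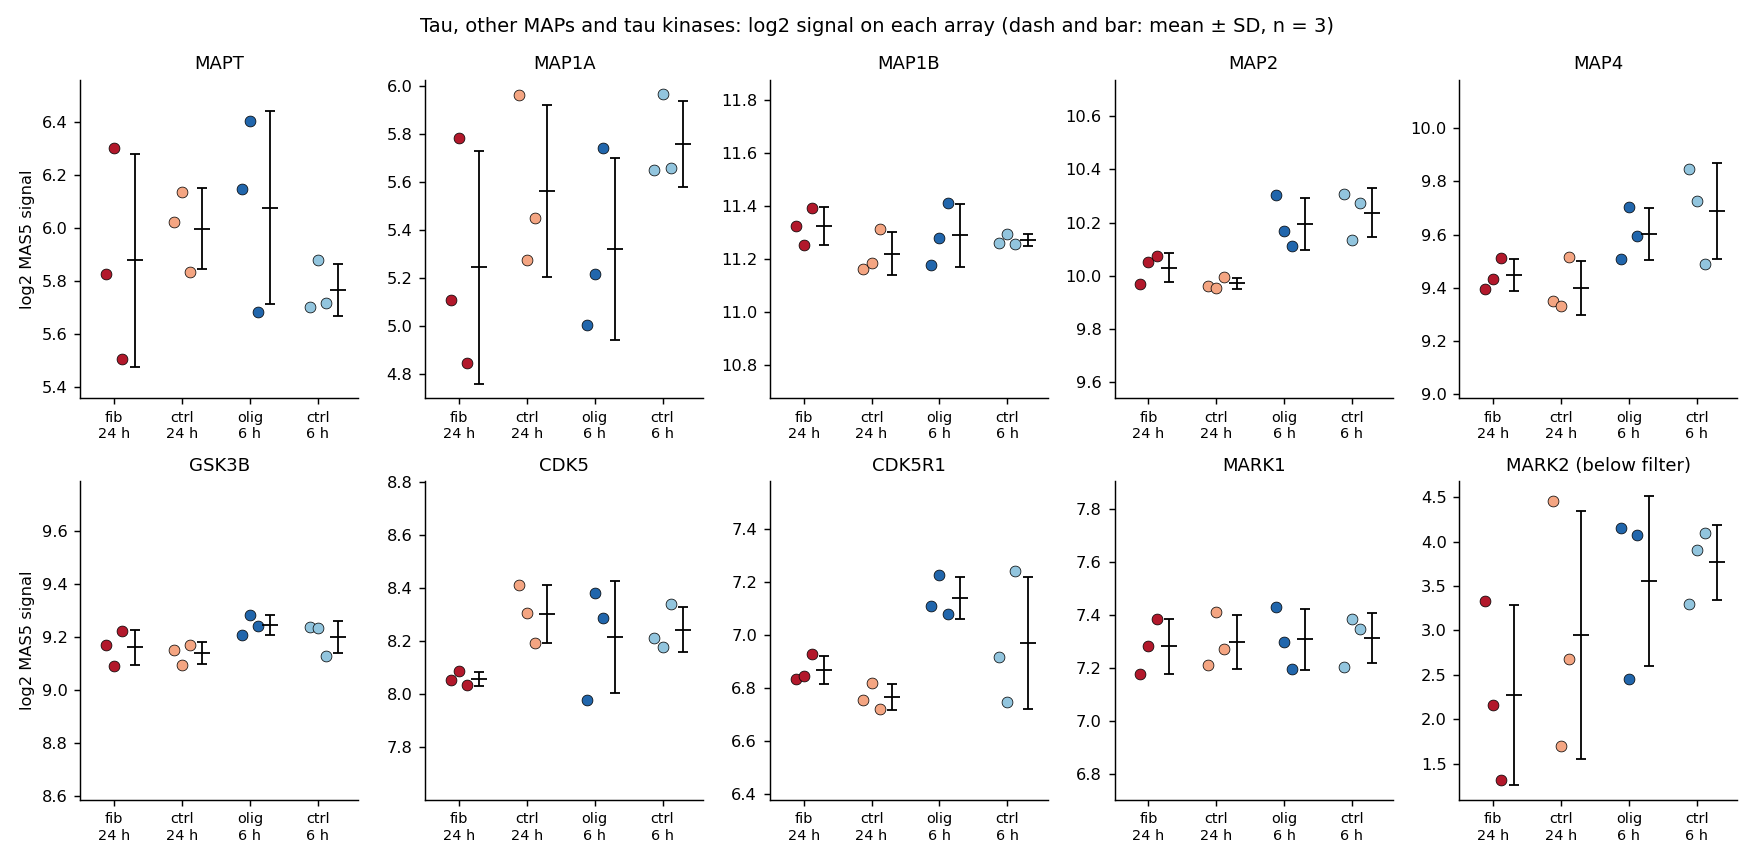
Log2 MAS5 signal (vertical axes, each with its own range) of the 10 members in fibrillar Aβ at 24 h (fib), its control, oligomeric Aβ at 6 h (olig) and its control. Points are single arrays, dashes with bars the mean ± SD of 3. MAP2 is lower on all 6 arrays of 24 h than on all 6 arrays of 6 h. The points of MAPT spread more widely in the treated groups than in their controls, and those of MAP1A spread widely in the 24 h controls as well.

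The comparisons of each preparation with its control ask which transcripts differ with Aβ, here first among the microtubule-associated proteins. MAPT read 5.82, 6.30 and 5.50 with fibrils and 6.02, 6.13 and 5.83 in the 24 h controls. With oligomers it read 6.15, 6.40 and 5.68, and in the 6 h controls 5.70, 5.88 and 5.72. Both treated groups overlapped their controls. On this probe set their arrays also lay farther from each other than those of the controls, which was not tested. The SDs were 0.40 with fibrils and 0.15 in their controls, and 0.36 with oligomers and 0.10 in theirs. No other MAPT probe set above the filter showed this with both preparations. In the same order the SDs were 0.24, 0.55, 0.15 and 0.33 on 225379_at, and 0.21, 0.20, 0.69 and 0.88 on 206401_s_at. On 203928_x_at they were 0.030, 0.028, 0.20 and 0.22. The tau transcript differed by −0.12 with fibrils (SE 0.22, limma adjusted p = 0.859) and by 0.31 with oligomers (SE 0.22, adjusted p = 1). The 95% interval with oligomers ran from −0.14 to 0.77. Without fibrillar replicate 3, the lowest array, the sign of the fibrillar difference turned to 0.07. The difference of the responses was −0.43 (SE 0.30, adjusted p = 0.749).

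MAP1A, of the MAP1 pair the one typical of mature neurons, had lower means under both preparations. It read 5.11, 5.78 and 4.84 with fibrils against 5.96, 5.27 and 5.45 in the 24 h controls, a difference of −0.32 (SE 0.27, limma adjusted p = 0.665). With oligomers it read 5.00, 5.22 and 5.74 against 5.65, 5.96 and 5.66 in the 6 h controls, a difference of −0.44 (SE 0.27, adjusted p = 1). Neither passed, the groups overlapped, and the intervals of −0.89 to 0.25 and of −1.005 to 0.13 are the widest among the tested members. MAP1B, its counterpart in growing neurites, stayed within narrow ranges on its brightest probe set: 11.25 to 11.39 with fibrils, 11.16 to 11.31 in the 24 h controls, 11.18 to 11.41 with oligomers and 11.26 to 11.30 in the 6 h controls. It differed by 0.10 with fibrils (adjusted p = 0.56) and by 0.02 with oligomers (adjusted p = 1).

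MAP2, the dendritic MAP, read 9.97, 10.05 and 10.07 with fibrils and 9.96, 9.95 and 9.996 in the 24 h controls. With oligomers it read 10.30, 10.17 and 10.11, and in the 6 h controls 10.31, 10.13 and 10.27. Each treated group overlapped its own control, while the arrays of 24 h, at 9.95 to 10.07, all lay below those of 6 h, at 10.11 to 10.31. MAP2 differed by 0.06 with fibrils (SE 0.07, limma adjusted p = 0.77; interval −0.09 to 0.21) and by −0.04 with oligomers (SE 0.07, adjusted p = 1; interval −0.19 to 0.11). MAP4, the MAP of most tissues, ran from 9.39 to 9.51 with fibrils, 9.33 to 9.51 in the 24 h controls, 9.51 to 9.70 with oligomers and 9.49 to 9.85 in the 6 h controls. It differed by 0.05 with fibrils (adjusted p = 0.862) and by −0.09 with oligomers (adjusted p = 1).

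Among the kinases, CDK5 read 8.05, 8.09 and 8.04 with fibrils and 8.41, 8.31 and 8.19 in the 24 h controls. The fibrillar arrays all lay below the controls. The difference was −0.24 (SE 0.10, interval −0.46 to −0.03), with an unadjusted p of 0.0294, and it did not pass over all genes (limma adjusted p = 0.283). With single arrays left out it ran from −0.30 to −0.19, with adjusted p-values from 0.187 to 0.614. Its sign could not turn there, because the groups lay apart. With oligomers CDK5 read 7.98, 8.38 and 8.29 against 8.21, 8.18 and 8.34 in the 6 h controls, a difference of −0.03 (SE 0.10, adjusted p = 1). The difference of the responses was −0.22 (SE 0.14, adjusted p = 0.729).

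CDK5R1, the gene of the activator p35, had a higher mean with fibrils. It read 6.83, 6.85 and 6.93 against 6.76, 6.82 and 6.72 in the 24 h controls. The groups lay apart, but the difference of 0.10 was smaller than its SE of 0.13 (limma adjusted p = 0.784), because the spread is shared with the 6 h controls, where CDK5R1 read 6.92, 6.75 and 7.24. With oligomers it read 7.11, 7.23 and 7.08, inside the range of those controls, a difference of 0.17 (SE 0.13, adjusted p = 1).

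GSK3B had the smallest SE of the tested members, 0.07. It read 9.17, 9.09 and 9.22 with fibrils against 9.15, 9.09 and 9.17 in the 24 h controls, and 9.20, 9.28 and 9.24 with oligomers against 9.24, 9.23 and 9.13 in the 6 h controls. The differences of 0.02 and 0.04 had intervals of −0.12 to 0.17 and of −0.10 to 0.19. MARK1 ran from 7.18 to 7.39 with fibrils and 7.21 to 7.41 in the 24 h controls, and from 7.20 to 7.43 with oligomers and 7.21 to 7.38 in the 6 h controls. Its differences of −0.02 and −0.0044 had intervals of −0.24 to 0.21 and of −0.23 to 0.22. MARK2, below the filter, read 3.33, 2.16 and 1.31 with fibrils, 4.45, 1.70 and 2.68 in the 24 h controls, 4.15, 2.46 and 4.07 with oligomers and 3.29, 3.90 and 4.10 in the 6 h controls. Fitted without a filter, it differed by −0.68 (SE 0.79) with fibrils and by −0.21 (SE 0.79) with oligomers.

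Taken as counts, 0 of the 9 tested members were called with fibrils, where 140 genes or 1.19% of all tested genes were. With oligomers limma called 0 of the 9 and 0 genes in all (0%), 0 of the 9 and 327 genes having an unadjusted p below 0.05. The difference of the responses gave 0 of 9, against 5 genes or 0.0425%, and an unadjusted p below 0.05 was found for 1 of 9 members with fibrils, CDK5, against 14.2% of all tested genes. In the difference it was found for 0 of 9, against 8.53%, and with oligomers the 327 genes are 2.78%. Groups lay fully apart for 2 of 9 members with fibrils, CDK5 and CDK5R1, against 19.7% of all genes, and for 0 of 9 with oligomers, against 7.36%. The median change of the members was 0.02 with fibrils, against −0.00054 over all tested genes, and −0.0044 with oligomers, against −0.0046.

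**Figure D2:**
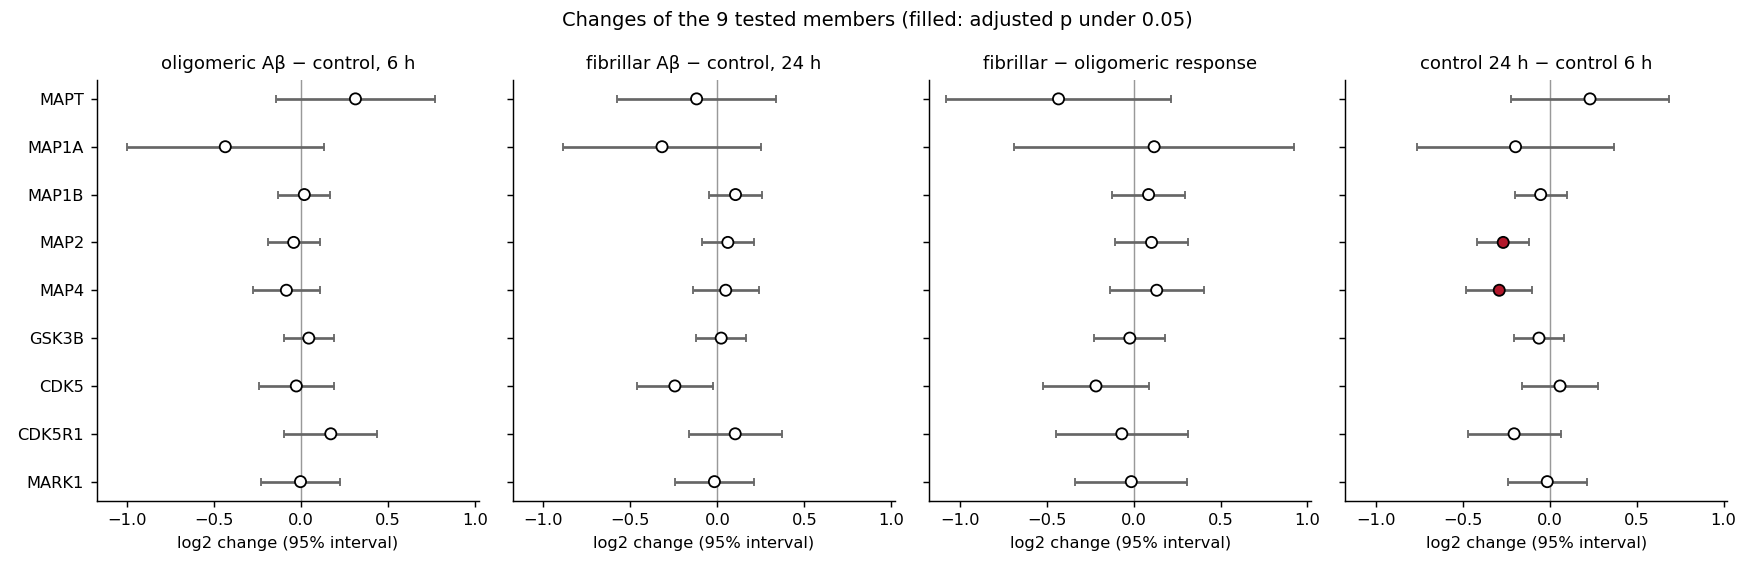
Log2 change with its 95% interval for the 9 tested members in 4 contrasts, zero marked by a line; filled points passed an adjusted p of 0.05. MAP2 and MAP4 in the control contrast are filled, and the intervals of MAPT and MAP1A are several times those of GSK3B and MAP2.

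The 24 h and the 6 h controls are labelled without Aβ. Here the dendritic and the general MAP were lower in the 24 h controls, each on its brightest probe set. The 6 tested probe sets of MAP4 did not share a direction, with 4 lower and 2 higher in the 24 h controls. MAP2 had a log2 change of −0.27 (SE 0.07, limma adjusted p = 0.0212), a ratio of 0.831, with groups fully apart. MAP4 read 9.35, 9.33 and 9.51 in the 24 h controls against 9.85, 9.73 and 9.49 in the 6 h controls, a change of −0.29 (SE 0.09, adjusted p = 0.047), a ratio of 0.818, with groups that overlapped by the third array of each. MAPT had a higher mean at 24 h that did not pass (0.23, SE 0.22, adjusted p = 0.53), and CDK5R1 a lower one (−0.20, SE 0.13, adjusted p = 0.326). The other 5 tested members had changes from −0.20 to 0.06, with adjusted p-values from 0.613 to 0.954. So 2 of 9 members were called, both lower, against 11.7% of all genes called and 7.92% called lower, and 1 of 9 had groups fully apart, against 32.6%.

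The treated groups, which share no array with these controls, gave values to set beside them. Fibrillar arrays at 24 h less oligomeric arrays at 6 h gave −0.16 for MAP2, with groups apart, −0.16 for MAP4, with groups that overlapped, and −0.27 for CDK5R1, with groups apart. It was −0.20 for MAPT and −0.16 for CDK5, both with groups that overlapped and with a sign opposite to that between the controls (0.23 and 0.06). The other 5 members, MARK2 included, overlapped as well, at −1.29 for MARK2 and from −0.08 to 0.03 for the rest. Form and hours differ together in this pair, so it was not tested.

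The calls of MAP2 and MAP4 rest on few arrays. Of 12 fits that each left out 1 array, MAP2 was called in 7 (adjusted p up to 0.0877) and MAP4 in 2 (up to 0.194). MAP2 was not called without 6 h control replicate 1 or 3 or without any 1 of the 24 h controls. MAP4 was called only without oligomeric replicate 1 or 6 h control replicate 3. Measures of the arrays themselves moved with this contrast. The 3′ less 5′ difference of the GAPDH control probe sets was 0.47 to 0.52 in the 24 h controls and 0.77 to 0.83 in the 6 h controls, and that of ACTB was 2.34 to 2.65 and 2.82 to 3.25. The array median was 4.04 to 4.12 in the 24 h controls and 3.89 to 4.01 in the 6 h controls. Each gave an exact two-sided permutation p of 0.1, or 0.3 when adjusted over 9 comparisons; with 3 arrays a side p cannot be lower than 0.1. Among the line's own markers, limma also called PHOX2A (−0.44), DBH (−0.50), CD44 (−0.97) and YAP1 (−0.35) lower and STMN2 (0.34) and TWIST1 (0.44) higher in the 24 h controls. The part of all these in the changes of MAP2 and MAP4 was not tested. Centring each array on its median moves this contrast by 0.13 and gives −0.40 for MAP2 and −0.42 for MAP4, both still called.

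In order of level, the group means of MAP2 and MAP4 both ran from the 6 h controls, the highest, through oligomers and fibrils to the 24 h controls. The single gap in which neighbours did not overlap was, for MAP2, that between oligomers and fibrils. CDK5R1 ran from oligomers through the 6 h controls and fibrils to the 24 h controls, with its fibrillar and 24 h control arrays apart. For the other 7 members, MARK2 included, all neighbouring groups overlapped. The span of the 4 group means was 0.03 for MARK1, 0.10 for MAP1B and GSK3B, and 0.51 for MAP1A.

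Each member but CDK5 is read by more than 1 probe set, 35 in all, of which 24 passed the filter and were tested one by one among 22107 probe sets. The probe sets of a gene can match different ends or forms of its transcript. In the fibrillar comparison limma called 0 of 24, against 0.57% of all probe sets, and 4 had an unadjusted p below 0.05, against 14% of all. Groups lay apart for 6 of 24, against 19.2%. With oligomers it called 0 of 24, against 0%, 1 was below an unadjusted 0.05, against 3.43%, and 0 lay apart, against 8%. In the difference it called 0 of 24, against 0.0136%, and 3 were below an unadjusted 0.05, against 9.11%. Between the 24 h and the 6 h controls 3 of 24 were called, against 9.6%, and 6 lay apart, against 30.5%. The fibrillar comparison and the control contrast share the 24 h controls, so opposite signs in them are not independent.

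Tau was read by 4 probe sets above the filter. Their fibrillar differences were −0.12 (203929_s_at), −0.18 (203928_x_at), −0.41 (206401_s_at) and −0.14 (225379_at), with adjusted p-values from 0.709 to 0.872. On 203928_x_at, a type of probe set that can also bind related sequences, the groups lay apart, at 5.77, 5.77 and 5.82 with fibrils against 5.97, 5.99 and 5.93 in the 24 h controls. With oligomers 203928_x_at had a difference of −0.21, and the other 3 had 0.31, 0.32 and 0.38. None of the 4 passed with either preparation.

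MAP1B gave different pictures on its 3 probe sets. On 214577_at it read 6.69, 6.55 and 6.87 with fibrils against 7.16, 7.32 and 7.05 in the 24 h controls, which lay apart (−0.47, SE 0.20, limma adjusted p = 0.289). Those controls were also higher than the 6 h controls, at 6.32, 6.82 and 5.87, and this difference was called (0.84, SE 0.20, adjusted p = 0.0144). It stayed called in 10 of 12 fits that left out 1 array; without 24 h control replicate 2 and without 6 h control replicate 3 it was not (adjusted p up to 0.0591). On 226084_at the fibrillar arrays read 9.99, 9.99 and 10.18 against 9.84, 9.74 and 9.81 in the 24 h controls, apart in the opposite direction (0.26, SE 0.09, adjusted p = 0.223). With oligomers the same probe set read 9.89, 9.74 and 9.69 against 10.18, 9.79 and 10.04 in the 6 h controls, and the difference of the responses was 0.49 (SE 0.13, unadjusted p = 0.00204, adjusted p = 0.252). The brightest probe set, 212233_at, had changes between −0.05 and 0.10 in all of these.

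MAP4 was read by 6 probe sets above the filter. On 200835_s_at it read 7.46, 6.61 and 5.53 with fibrils against 7.61, 7.80 and 7.54 in the 24 h controls, a difference of −1.11 (SE 0.32, unadjusted p = 0.00278, limma adjusted p = 0.118). The fibrillar arrays lay below their controls and spread over nearly 2 log2 units. Without fibrillar replicate 1, the highest, the difference was −1.58 and was called (adjusted p = 0.00547). The same probe set was higher in the 24 h than in the 6 h controls, at 6.71, 6.40 and 6.76 (1.02, SE 0.32, adjusted p = 0.0521), against the direction of the brightest probe set, 212566_at (−0.29). On 200835_s_at this change was called with array weights (0.99, adjusted p = 0.0454) and on log2 of signal plus 16 (0.92, adjusted p = 0.034). It was also called without fibrillar replicate 1 (adjusted p = 0.0107) or 3 (adjusted p = 0.0057). On 33850_at the change between the controls was −0.47 and was called (SE 0.14, adjusted p = 0.045), in 5 of 12 fits that left out 1 array. On 243_g_at it was −0.32 (adjusted p = 0.0963) and on 200836_s_at −0.47 (adjusted p = 0.327), while on 212567_s_at it was 0.09. The mean of the 6 gave −0.07 for the control contrast (adjusted p = 0.683). Among probe sets, 212566_at itself, on which MAP4 was called as a gene, was not called (adjusted p = 0.0565), so 33850_at was the 1 of 6 that was, and their mean was not.

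The second MAP2 probe set, 210015_s_at, read 5.81, 5.69 and 5.43 in the 24 h controls and 6.29, 6.38 and 5.92 in the 6 h controls, with groups apart in the direction of the first (−0.55, SE 0.22, limma adjusted p = 0.134). The first was called at this level as well (225540_at, adjusted p = 0.0275). GSK3B had 3 tested probe sets with fibrillar differences from −0.02 to 0.02. MARK1 also had 3, of which 1560407_at had a higher mean with fibrils (0.40) and a lower mean with oligomers (−0.44), neither of which passed (adjusted p = 0.541 and 1). Its difference of the responses, 0.84 (SE 0.37), had an adjusted p of 0.506.

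**Figure D3:**
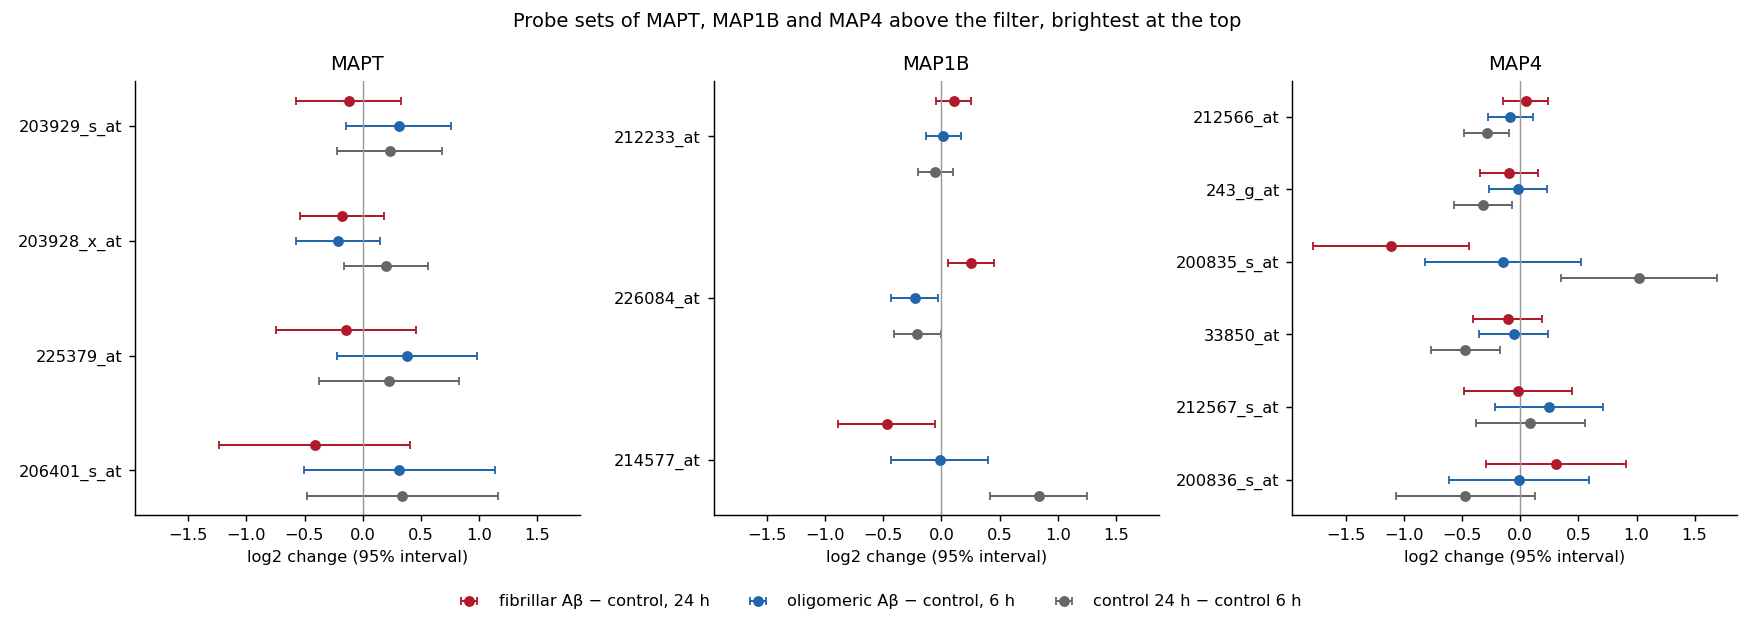
Log2 change with its 95% interval (horizontal axis) on each probe set of MAPT, MAP1B and MAP4 above the filter, for fibrillar Aβ against control (red), oligomeric Aβ against control (blue) and 24 h against 6 h controls (grey). For MAP1B on 214577_at and MAP4 on 200835_s_at the red and grey intervals lie on opposite sides of 0, while these contrasts share the 24 h controls.

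The arrays' pattern of MAPT was set against that of every tested gene over the 12 arrays. The 5 with the highest Pearson r to 203929_s_at were CCDC18 (0.85), NUSAP1, a spindle protein (0.832), EEPD1 (0.828), FBXO10 (0.827) and PTGES3, the HSP90 co-chaperone p23 (0.798). Each had 0.796 or more within the 6 arrays of 6 h and 0.826 or more within the 6 of 24 h. These are parts of the 12 arrays over which the 5 were picked. The other tested members had r from −0.61 for MAP1B to 0.172 for MARK1. For some of them r differed between the times: MAP1A had −0.745 at 6 h and 0.736 at 24 h, against 0.03 over all 12 arrays, and GSK3B 0.463 at 6 h and −0.968 at 24 h, against −0.20 over all 12. All arrays share the scaling, and the highest of so many values are high by selection, so this is a description without a test.

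Around the members, 4 lists of genes that act on tau or on microtubules were counted. They were other MAPs and end-binding proteins (31 of 34 tested), other tau kinases and activators (33 of 45), tau phosphatases and their regulators (27 of 29), and genes of tau turnover, acetylation and O-GlcNAc (28 of 30). With oligomers limma called none of these genes, as it called none of all genes (0%), and 1, 2, 1 and 0 had an unadjusted p below 0.05, against 2.78% of all genes. In the difference of the responses it called none either, against 0.0425% of all genes called, with 3, 2, 7 and 4 below an unadjusted 0.05, against 8.53% of all genes.

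With fibrils 3 of these 119 genes were called, against 0.799% of all genes higher and 0.391% lower. An unadjusted limma p below 0.05 was found for 4 of 31 MAP genes and 9 of 27 phosphatase genes, against 14.2% of all genes. MTUS1, a microtubule-associated tumour suppressor, was the 1 of 31 MAPs called, with a lower level. It read 6.75, 6.84 and 6.72 with fibrils against 7.36, 7.27 and 7.26 in the 24 h controls, a change of −0.53 (SE 0.11, limma adjusted p = 0.0358), and its 3 probe sets all had lower means. Of the 27 phosphatase genes 1 was called higher and 1 lower. PPP1CA, a catalytic subunit of protein phosphatase 1, fell by 0.51 to 8.0003, 8.24 and 8.03 with fibrils, against 8.65, 8.61 and 8.54 in the 24 h controls (SE 0.12, adjusted p = 0.0454). Its 1 tested probe set was not called when adjusted over all probe sets. PPP2R1B, a scaffold subunit of protein phosphatase 2A, the main tau phosphatase, was higher with fibrils by 0.49 (SE 0.11, adjusted p = 0.0454). It read 8.73, 9.04 and 9.03, against 8.44, 8.49 and 8.41 in the 24 h controls. Its mean was 8.93 with fibrils, 8.86 with oligomers and 8.86 in the 6 h controls, and lower, at 8.45, in the 24 h controls. All 4 of its probe sets had higher means with fibrils, of which 0 were called when tested one by one. For these 3 genes the groups lay apart, and of 12 fits that left out 1 array they were called in 6, 5 and 4, with adjusted p-values up to 0.15, 0.185 and 0.206. Of the fits without a 24 h control none called any of the 3. The calls were also lost without fibrillar replicates 1 and 3 for MTUS1 and PPP1CA and 2 and 3 for PPP2R1B, and without some of the 6 h arrays, which enter through the shared spread. The GAPDH 3′ less 5′ difference was 0.49 to 0.81 with fibrils and 0.47 to 0.52 in the 24 h controls (exact permutation p = 0.3), and its part was not tested. With the mean of probe sets none of the 3 was called: MTUS1 had −0.73 (adjusted p = 0.0625), PPP1CA −0.51 (adjusted p = 0.0625) and PPP2R1B 0.30 (adjusted p = 0.272). A constant prior also ended all 3 calls (adjusted p = 0.0894, 0.176 and 0.177 in that order). After median centring MTUS1 (−0.45) and PPP1CA (−0.43), and after quantile normalization PPP2R1B (0.47), were no longer called. With no filter PPP1CA (adjusted p = 0.0592) and PPP2R1B (adjusted p = 0.0606), and with the compared groups fitted alone MTUS1 (adjusted p = 0.0691) and PPP2R1B (adjusted p = 0.0552), were not called.

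None of the 33 kinase genes was called with fibrils, with 4 below an unadjusted p of 0.05, against 14.2% of all genes. The lowest p-values in each direction belonged to TAOK1, which activates MARK kinases (0.21, SE 0.07, limma adjusted p = 0.181), and CDK5RAP3, a protein that binds the CDK5 activator (−0.18, SE 0.10, adjusted p = 0.432). TAOK1 had probe sets of both signs, and their mean gave −0.25. None of the 28 turnover genes was called, with 7 below an unadjusted 0.05, against the same 14.2%. SIRT1, a deacetylase of tau, had 0.31 (SE 0.09, adjusted p = 0.1) and NPEPPS, the puromycin-sensitive aminopeptidase, −0.33 (SE 0.09, adjusted p = 0.104). NPEPPS had 2 probe sets with higher means and 1 with a lower mean, their mean gave −0.0074 (adjusted p = 0.982), and with array weights it was called (−0.37, adjusted p = 0.0436). The list medians with fibrils were −0.02 for MAPs, 0.04 for kinases, 0.04 for phosphatases and 0.03 for turnover, against −0.00054 over all genes.

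**Figure D4:**
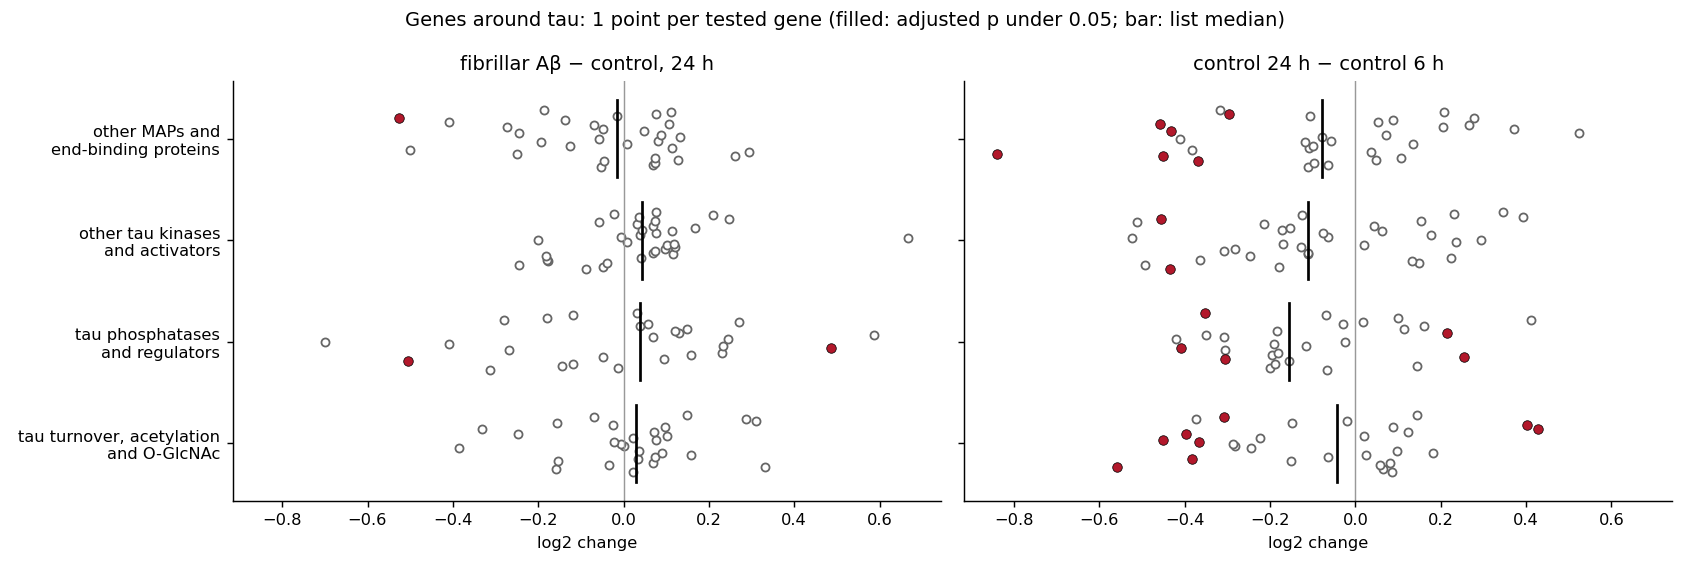
Log2 change of each tested gene of the 4 lists (horizontal axis), with fibrillar Aβ against its control on the left and 24 h against 6 h controls on the right. Bars are list medians and filled points passed an adjusted p of 0.05, 3 on the left and 21 on the right, most of these below 0.

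Between the 24 h and the 6 h controls 6 of the 31 MAP genes were called lower and none higher, against 7.92% and 3.76% of all genes. CLIP2, a linker of microtubule plus ends, fell to 4.90, 5.00 and 5.48 in the 24 h controls, against 5.97, 6.22 and 5.72 in the 6 h controls (−0.84, SE 0.22, limma adjusted p = 0.0225). MAPRE1, the end-binding protein EB1, fell to 10.002, 10.14 and 10.07, against 10.47, 10.65 and 10.48 (−0.46, SE 0.08, adjusted p = 0.00182), although its second probe set had 0.05 and the mean of both was not called (−0.20). Of 33 kinase genes 2 were called lower and none higher, against the same shares. They were SGK1, a kinase induced by serum and glucocorticoids (−0.46, adjusted p = 0.0029), and ABL1, a tyrosine kinase (−0.44, adjusted p = 0.00591). Both were called in all 24 other fits, those with an array left out included.

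Of 27 phosphatase genes 2 were called higher and 3 lower, against 3.76% and 7.92% of all genes. SET, an inhibitor of protein phosphatase 2A, fell by 0.35 (limma adjusted p = 0.00238), on both of its probe sets, and PPP2R1B fell by 0.41 (adjusted p = 0.0254). PPP2R1B had probe sets of both signs, their mean gave −0.06 (adjusted p = 0.802), and a constant prior ended its call (adjusted p = 0.0743). The fibrillar comparison shares these 24 h controls, so opposite signs there, as for PPP2R1B and NPEPPS, are not independent. PPP1CC, another catalytic subunit of protein phosphatase 1, rose by 0.25 (adjusted p = 0.0146). PPP2R5C, a regulatory subunit of protein phosphatase 2A, rose by 0.21 (adjusted p = 0.0475). Both lost the call after median centring, at 0.12 and 0.08. PPP2R5C also lost it with no filter, the mean of probe sets, a constant prior and the compared groups fitted alone. Its 5 probe sets had changes from −0.56 to 0.21, and 0 were called one by one. Of 28 turnover genes 2 were called higher and 6 lower, against the same shares. BAG3, a co-chaperone of selective autophagy, fell by 0.56 (adjusted p = 0.00786) and FKBP5, an HSP90 co-chaperone, by 0.45 (adjusted p = 0.00315). NPEPPS rose by 0.43 (adjusted p = 0.00718) and OGT, the enzyme that adds O-GlcNAc, by 0.40 (adjusted p = 0.0107), but after median centring they were not called (0.30 and 0.27) and the means of their probe sets turned to −0.0026 and −0.01. Of 12 fits that left out 1 array, CLIP2 and PPP2R1B were called in 8, OGT in 10, PPP1CC in 11 and PPP2R5C in 3, and MAPRE1, SET, BAG3, FKBP5 and NPEPPS in all. Those that ended a call of CLIP2, PPP2R1B, OGT or PPP1CC each left out a control array. The list medians were −0.08, −0.11, −0.16 and −0.04 in the order above, against −0.02 over all genes.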

How the data were processed

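RNA of SH-SY5Y cells was measured on 12 Affymetrix arrays, grouped by the treatment given in the labels. The authors deposited log2 signals of probe sets; MAS5 is the tool that the submitters' processing notes name, without a version. Each array's trimmed mean signal, from 2% to 98%, equals 100, so no further normalization was applied. Detection calls were not used here, and 0 columns were left unused. Scaling to a common mean hides any change in total RNA.

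Of 54675 probe sets, 41091 had 1 gene symbol. The brightest per gene was kept where its mean reached the median of all probe sets (log2 3.79). A group-means model over all 12 arrays was fitted with limma 3.58.1 in R 4.3.3 with an intensity trend, and Benjamini-Hochberg adjusted p-values under 0.05 over all 11767 genes were called. Each gene has 1 estimate of spread, from all 4 groups. All probe sets were refitted in the same way.

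The members, lists and tests were chosen with earlier results of these data known. Named genes were all members; from each list, genes called in an Aβ contrast, otherwise the lowest p in each direction with fibrils; up to 2 called genes in each direction between controls; and the 5 genes most correlated with MAPT. Same-numbered arrays were not treated as pairs. The correlations of their deviations were small, −0.02 to 0.09 at 6 h and 0.03 to 0.08 at 24 h. Still, the same-numbered array was the best match for 6 of 6 arrays at 24 h and 3 of 6 at 6 h. A pairing at 24 h is thus possible. With the replicate number as a block, limma called 184 genes with fibrils, against 140 without it. The alternatives were 12 settings and 12 fits that left out 1 array.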

Additional observations from a re-analysis of the deposited data

How the results depend on the processing

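The 12 arrays, 3 a group, and the probe set chosen for each gene set the main limits. In the contrasts with Aβ, 0 members were called under any of the alternatives run, and those members whose sign turned had main changes of at most 0.13. The sign turned as follows. After quantile normalization MARK1 had 0.00070 with oligomers, 0.0154 with fibrils and 0.0147 in the difference, and GSK3B −0.0015 with fibrils. After median centring the oligomer contrast had −0.0211 for GSK3B and −0.0469 for MAP1B, the fibrillar one 0.0573 for MARK1, the difference 0.0715 for CDK5R1, 0.12 for GSK3B and 0.13 for MARK1, and the control contrast −0.0712 for CDK5. With the mean of probe sets MAP1B had −0.0758 with oligomers, −0.0373 with fibrils and 0.19 between controls. MAP2 had −0.0721 with fibrils and −0.0210 in the difference, MAP4 −0.16 and −0.15, MARK1 0.11 and 0.25, TAOK1 −0.25 with fibrils, and NPEPPS −0.0026, OGT −0.0118 and PPP2R5C −0.0477 between controls. With array weights CDK5 had 0.0110 and MARK1 0.0128 with oligomers, MARK1 0.0078 with fibrils and MAP1A −0.00087 in the difference. With single arrays left out the oligomer contrast ran from −0.11 to 0.0900 for CDK5, −0.0440 to 0.0735 for MAP1B and −0.0652 to 0.0507 for MARK1, and the fibrillar one from −0.0084 to 0.0572 for GSK3B, −0.33 to 0.0669 for MAPT and −0.0687 to 0.0394 for MARK1. The difference ran from −0.20 to 0.0431 for CDK5R1, −0.0517 to 0.0140 for GSK3B, −0.15 to 0.33 for MAP1A and −0.0678 to 0.0482 for MARK1, and the control contrast from −0.0703 to 0.0294 for MARK1. The cause of these turns was not tested.

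Between controls the 2 called members became 1 when no filter was set, when probe sets were averaged, when the compared groups were fitted by themselves and with the replicate number as a block (MAP4 lost, adjusted p = 0.0548), 0 with a constant prior, and 0 to 2 with single arrays left out. The replicate block changed no other member's call as a gene; among probe sets it added that of 200835_s_at of MAP4 between controls (1.02, adjusted p = 0.0279). The 3 called probe sets became 5 after median centring and with array weights, 0 with a constant prior and 0 to 4 with single arrays left out, and the fibrillar comparison had 0 or 1. Over all genes the fibrillar count of 140 ran from 7 (constant prior) to 269 and with single arrays left out from 14 to 185, the control count of 1375 from 945 to 2036 and from 719 to 1470, and the difference count of 5 from 0 to 27 and from 0 to 64. Median centring moved the share of calls that were higher to 86.1%, against 67.1%, with fibrils, and to 7.34%, against 32.2%, between controls. With the mean of probe sets these shares were 53.2% and 42.4%.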
